A study of Mus musculus with 21 samples.

Results

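The effect of the Sey allele of Pax6 on gene expression was set against the effect of the Leca4 allele, in rostral cerebral cortex dissected from E14 mouse embryos. The quantity compared for each gene was the Sey change (mean of Sey mutants minus mean of their littermate controls) minus the Leca4 change, formed in the same way. It used 14 of the 21 arrays of the series, namely 4 Sey mutants, 3 Sey littermate controls, 3 Leca4 mutants and 4 Leca4 littermate controls. The other 7 arrays, of a Leca2 line, entered the same model and are cited only beside genes of interest. The labels give the strain of the Sey line as C57BL/6J x DBA/2J (B6D2F1) and that of both the Leca4 and the Leca2 line as 129 S6. They call the mutants Pax6 Sey mutant and Pax6 Leca4 mutant without stating zygosity, call the controls littermates of the mutants, name no treatment, and leave the sex undetermined. Allele, strain and line therefore cannot be told apart in any difference described here. The same would hold for a normalization made per line, which the labels do not state.

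Pax6 is a transcription factor of cortical radial glia, the neural stem cells of the developing cortex. It binds DNA through a paired domain, which has a PAI and a RED subdomain, and through a homeodomain. In the cortex it is known for promoting neurogenesis through factors such as Neurog2 and Eomes, for restraining genes of the ventral telencephalon, and for setting the pace of progenitor division. The Sey (small eye) allele carries a premature stop codon and is regarded as a loss of function, whereas the Leca4 allele is known as a point mutation in the PAI subdomain. The labels do not describe either mutation.

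Levels below are log2 RMA values, so 1 unit is a 2-fold difference, and changes are differences of such values. A gene was called changed at a Benjamini-Hochberg adjusted p under 0.05 in limma over all 13850 genes tested. Errors on changes are standard errors from that model, and errors on means are SDs. The labels call the arrays biological replicates, and the p-values measure the spread between these samples. In bulk tissue, fewer cells of a type and less RNA per cell cannot be told apart. Arrays of a group correlated across probe sets at 0.9951 to 0.9972 in Sey mutants and 0.9965 to 0.997 in Sey controls. The correlations were 0.9931 to 0.9943 in Leca4 mutants, the lowest of these groups, and 0.9951 to 0.9961 in Leca4 controls. The 3′ minus 5′ signal of the Gapdh control probe sets, a sign of RNA quality, was -0.175 to -0.128 in Sey mutants and -0.162 to -0.127 in Sey controls, and -0.085 to 0.014 in Leca4 mutants and -0.115 to -0.084 in Leca4 controls. That of Actb was 0.274 to 0.336 in Sey mutants and 0.3 to 0.322 in Sey controls, and 0.433 to 0.501 in Leca4 mutants and 0.38 to 0.444 in Leca4 controls. Both reached higher in Leca4 mutants than in their controls, with ranges that barely overlapped, and the part of this in the Leca4 changes was not tested. Array medians were 6.03 to 6.07 in the Sey line and 6.25 to 6.26 in the Leca4 line, and Sey controls lay below Leca4 controls by a median of 0.382 over all genes, so levels are compared only within a line. None of 7 tested dorsal cortex markers was at or below the 40th percentile of the arrays (5.37 to 5.6, called the detection level here) in all arrays of a group. Of these markers, 3 rose and 3 fell in Sey, and 1 rose and 0 fell in Leca4. Lhx2, which rose by 0.40 in Sey, was at 12.63 to 12.94 in Sey mutants, 12.34 to 12.4 in Sey controls, 12.35 to 12.86 in Leca4 mutants and 12.35 to 12.57 in Leca4 controls. Neurod6, which fell by 0.55 in Sey, was at 11.79 to 12.54 in Sey mutants and 12.74 to 12.9 in Sey controls. Eomes and Tbr1 fell in Sey too. Xist, which is expressed in female cells, was high in 3 of 4 Sey mutants (11.07 to 11.31, the other at 5.43) and in 0 of 3 Sey controls (5.3 to 5.88), and in 1 of 3 Leca4 mutants (12.03) and 1 of 4 Leca4 controls (12.12).

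More genes were called in Sey (2791) than in Leca4 (779). The median standard error was 0.0825 for both changes by construction. The model shares 1 spread per gene over all groups, and each change sets 4 arrays against 3. It therefore does not compare the precision of the lines. In Sey mutants 1488 genes rose (10.7% of those tested) and 1303 fell (9.41%), and in Leca4 mutants 469 rose (3.39%) and 310 fell (2.24%). The difference between the Sey change and the Leca4 change was itself called for 1778 genes, positive for 936 (6.76%) and negative for 842 (6.08%). It exceeded 1 in log2 for 257 of them. Over all genes the median change was -0.0002 in Sey, 0.006 in Leca4 and -0.0101 for the difference. The changes of the lines, which share no arrays, correlated at r = 0.167 across genes (Spearman 0.089), and genes are not independent replicates.

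Both alleles changed 280 genes, which is 10% of the Sey calls and 35.9% of the Leca4 calls. Of these, 86 rose in both lines and 103 fell in both, whereas 40 rose in Sey and fell in Leca4 and 51 fell in Sey and rose in Leca4. The difference was called for all 91 opposite genes, 0.657% of the genes tested. At these thresholds that follows from calls of opposite sign with equal standard errors, so it is no further check. In 1182 genes Sey changed, Leca4 was not called and the difference was called, with 690 higher and 492 lower in Sey mutants. Of these 1182, 1041 had a 95% confidence interval of the Leca4 change that stayed within 0.5 of 0. That bound is near the median Sey change of the class, 0.529 for the genes higher and -0.494 for those lower. It therefore does not exclude a Leca4 change of nearly that size. The mirror class, changed in Leca4 and not called in Sey with a called difference, held 255 genes (172 up, 83 down), of which 218 had such a narrow interval in Sey. No share of narrow intervals over all genes tested is set beside either count, so they are not read as a trait of these classes. A further 1329 genes called in Sey and not in Leca4, and 244 called in Leca4 and not in Sey, had no called difference, so no allele preference is shown for them.

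**Figure D1:**
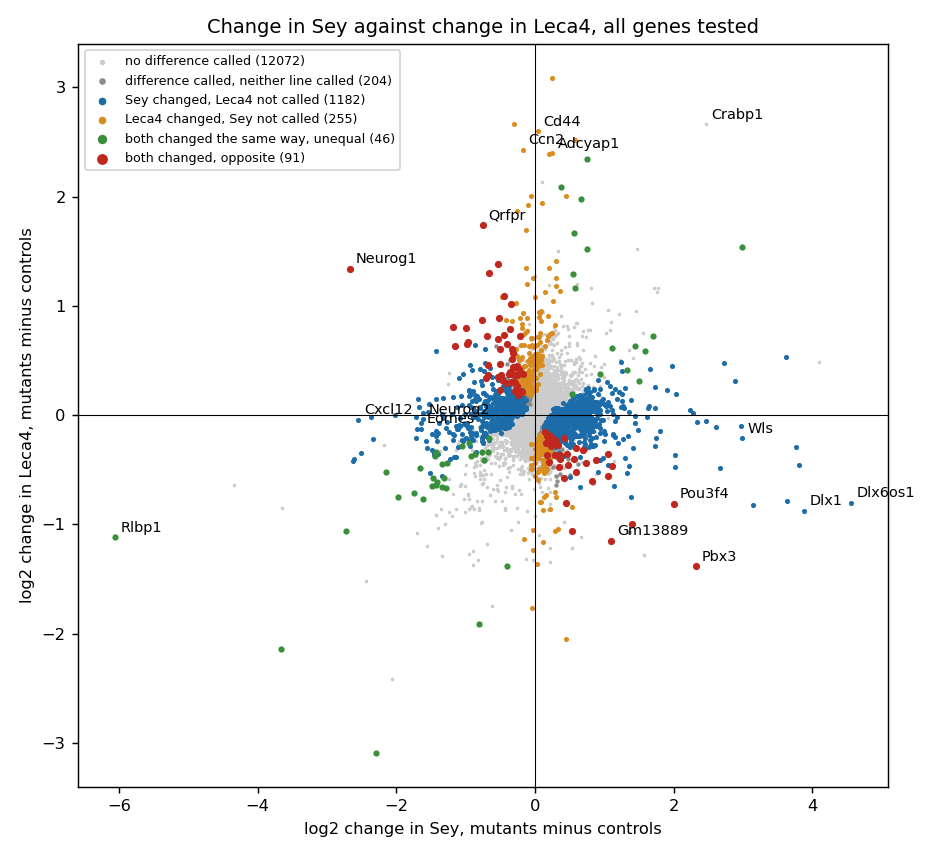
Change of each of the 13850 genes in Sey (x axis, log2, mutants minus controls) against its change in Leca4 (y axis, same unit), coloured by class. The 91 genes changed in opposite directions (red) occupy the upper left and lower right, with Neurog1 at -2.67 and 1.34 and Pbx3 at 2.32 and -1.39.

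Neurog1 showed the largest opposite change. This proneural transcription factor starts neuronal differentiation in cortical progenitors and other neural precursors. It was at 5.42, 5.62, 5.4 and 5.66 in Sey mutants, against 8.26, 8.0 and 8.33 in Sey controls. In the other line it was at 10.59, 10.36 and 10.66 in Leca4 mutants, against 9.24, 9.16, 8.96 and 9.42 in Leca4 controls. Sey mutants thus lay near the detection level and below all their controls, while all Leca4 mutants lay above theirs. The Sey change was -2.67 ± 0.15, the Leca4 change 1.34 ± 0.15 and the difference -4.01 ± 0.22 (limma, adjusted p = 7.75e-10). A second, dimmer probe set of the gene was near the detection level and gave -0.25 in Sey and 0.07 in Leca4, and the mean of both probe sets gave a difference of -2.16. In the Leca2 line Neurog1 fell by 1.43, as in Sey (adjusted p = 3.55e-05).

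Pbx3, a TALE homeodomain factor that partners other homeodomain proteins and is expressed in striatal neurons, moved the other way. Sey mutants had 11.49, 10.8, 12.03 and 11.64, against 8.67, 9.22 and 9.63 in Sey controls. Leca4 mutants had 8.26, 8.85 and 7.78, against 9.22, 9.73, 10.07 and 9.69 in Leca4 controls. The groups did not overlap in either line, with a Sey change of 2.32 ± 0.34, a Leca4 change of -1.39 ± 0.34 and a difference of 3.70 ± 0.48 (limma, adjusted p = 4.11e-05). The Leca4 fall was close to the threshold (adjusted p = 0.0209), and Pbx3 no longer counted as opposite without Leca4 mutant 1, Leca4 mutant 3 or Leca4 control 3. A second, dimmer probe set gave 2.31 in Sey and -1.10 in Leca4, and that Leca4 fall was not called (limma, adjusted p = 0.0758 over all probe sets).

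Pou3f4, a POU homeodomain factor of the ventral forebrain, was higher in every Sey mutant, at 10.3, 9.69, 10.08 and 10.02, against 7.98, 8.14 and 7.91 in Sey controls. It was lower in every Leca4 mutant, at 7.04, 6.95 and 6.48, against 7.33, 7.63, 7.83 and 7.76 in Leca4 controls. The changes were 2.01 ± 0.18 in Sey and -0.81 ± 0.18 in Leca4, and the difference was 2.82 ± 0.25 (limma, adjusted p = 5.47e-07). The opposite call was lost without Leca4 mutant 3 and with the replicate number as a block. The gene is on chromosome X, and with the Y-linked level as a covariate the difference was 2.75.

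The promoters of Neurog1 and Pou3f4 are shown because both are transcription factors with large opposite changes, 1 in each direction. They are given from RefSeq (GRCm38.p6), from 250 bases before to 50 after the start of the gene, 5′ to 3′ on the strand of the gene, with every TAAT or ATTA, the core bound by many homeodomains, in capitals. Neurog1 lies at chr13:56252131-56252430 on the minus strand and Pou3f4 at chrX:110814129-110814428 on the plus strand.
Neurog1: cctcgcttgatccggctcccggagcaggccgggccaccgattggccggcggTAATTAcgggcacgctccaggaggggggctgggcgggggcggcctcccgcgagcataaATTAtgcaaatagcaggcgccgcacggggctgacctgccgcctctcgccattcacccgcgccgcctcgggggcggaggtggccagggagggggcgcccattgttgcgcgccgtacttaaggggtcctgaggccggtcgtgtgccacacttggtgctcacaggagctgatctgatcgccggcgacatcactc
Pou3f4: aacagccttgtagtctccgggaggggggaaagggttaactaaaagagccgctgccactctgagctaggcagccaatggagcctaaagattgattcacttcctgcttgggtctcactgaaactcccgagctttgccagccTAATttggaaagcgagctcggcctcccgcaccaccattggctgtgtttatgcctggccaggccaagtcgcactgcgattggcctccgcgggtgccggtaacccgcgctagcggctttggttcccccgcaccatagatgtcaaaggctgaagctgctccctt
The Neurog1 window held 3 matches, a TAAT and an ATTA that overlap and a separate ATTA, and the Pou3f4 window held 1. TAAT was searched on both strands, ATTA being its reverse complement. Of the 91 opposite genes, 81 had a promoter in the table. At least 1 match was found in 17 of 34 promoters of genes higher in Sey and lower in Leca4, and in 21 of 47 (44.7%) of genes with the reverse pattern, beside 4672 (42.0%) of 11114 promoters of tested genes.

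Other genes that were higher in Sey mutants and lower in Leca4 mutants included factors and adhesion molecules of the developing forebrain. Foxp2, a forkhead factor of striatal and deep cortical neurons, was at 9.92, 9.61, 10.45 and 9.85 in Sey mutants, against 9.05, 9.12 and 9.21 in Sey controls. It was at 9.03, 9.22 and 9.01 in Leca4 mutants, against 9.57, 9.71, 9.69 and 9.79 in Leca4 controls. No mutant overlapped a control in either line, with changes of 0.83 and -0.60 and a difference of 1.43 ± 0.18 (adjusted p = 2.18e-05). Of its 5 probe sets, 4 gave a called rise in Sey and a called fall in Leca4. Cdh7, a classical cadherin, rose by 0.53 in Sey and fell by 1.06 in Leca4, with a difference of 1.60 ± 0.15 (adjusted p = 8.08e-07). A dimmer probe set gave 0.74 and -1.48, both called. Another gave 0.60 in Sey and -0.09 in Leca4, the latter not called (limma, adjusted p = 0.783 over all probe sets). Tmem163, a zinc transporter, rose by 1.10 in Sey and fell by 0.46 in Leca4 (difference 1.57 ± 0.13, adjusted p = 2.88e-07), and also rose by 0.96 in Leca2. Gm13889, a neighbour of Pax6 on chromosome 2 whose function is not described here, rose by 1.10 in Sey and fell by 1.15 in Leca4 (difference 2.25 ± 0.20, adjusted p = 5.57e-07).

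Adarb2, an RNA-editing deaminase homologue found in interneurons derived from the caudal ganglionic eminence, was detected only in part of the groups. It was at 6.68, 5.79, 6.08 and 6.44 in Sey mutants, against 4.92, 4.79 and 4.82 in Sey controls, which were all below the detection level. The Leca4 mutants, at 4.72, 5.17 and 4.55, were below it too, against 5.78, 5.41, 6.2 and 5.84 in Leca4 controls. The gene was therefore at least 1.81-fold higher in Sey mutants and at least 1.16-fold lower in Leca4 mutants (adjusted p = 0.000118 for the difference). The opposite call was lost with values set to the detection level, and without Leca4 mutant 1, Leca4 mutant 3 or Leca4 control 3.

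Rfx4, a winged-helix factor of neural progenitors, rose by 1.05 in Sey and fell by 0.56 in Leca4. With the mean of its 2 probe sets the difference fell to 0.79 and the opposite call was lost, as it was with array weights and without Leca4 mutant 2, Leca4 control 2 or Leca4 control 4. Nr2f2 (COUP-TFII), a nuclear receptor of the caudal cortex and the caudal ganglionic eminence, rose by 0.46 in Sey and fell by 0.35 in Leca4. Its Leca4 fall was at the threshold (adjusted p = 0.0499), and its opposite call held in 6 of 24 alternative settings.

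Among the genes lower in Sey mutants and higher in Leca4 mutants were secreted and membrane proteins. Jag1, a ligand of Notch receptors, was at 7.35, 7.46, 7.16 and 7.3 in Sey mutants, against 7.8, 7.94 and 7.76 in Sey controls. It was at 9.12, 9.1 and 9.2 in Leca4 mutants, against 8.22, 8.27, 8.21 and 8.29 in Leca4 controls. The groups were separate in both lines, and the difference was -1.40 ± 0.09 (adjusted p = 1.19e-08). A second, dimmer probe set of Jag1 gave -0.26 in Sey, which was not called (limma, adjusted p = 0.17 over all probe sets), and 0.44 in Leca4. Fgfbp3, a secreted protein that binds fibroblast growth factors, was at 9.53, 9.89, 9.87 and 9.95 in Sey mutants, against 10.4, 10.44 and 10.6 in Sey controls. It was at 12.13, 12.02 and 12.22 in Leca4 mutants, against 10.71, 10.8, 10.97 and 10.78 in Leca4 controls. Its Leca4 rise of 1.30 was thus larger than its Sey fall of 0.67, and the difference was -1.97 ± 0.14 (adjusted p = 3.88e-08).

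Fam210b, a mitochondrial membrane protein, moved by nearly the same size both ways, at -0.70 in Sey and 0.72 in Leca4 (difference -1.42 ± 0.10, adjusted p = 1.63e-08). Each of its 3 probe sets was called down in Sey and up in Leca4. Foxp1, a forkhead factor of striatal and cortical neurons, fell by 0.53 in Sey and rose by 0.70 in Leca4, the reverse of its paralogue Foxp2. Among membrane proteins, Vstm2a changed by -0.99 and 0.79, the potassium channel subunit Kcnq5 by -0.77 and 0.87, and the protocadherin Pcdh7 by -0.97 and 0.67, in Sey and in Leca4. Cemip, a hyaluronan-binding protein, changed by -1.16 in Sey and 0.64 in Leca4, but a dimmer probe set gave 0.00 and -0.19, and the mean of both gave a difference of -0.80. Qrfpr, a neuropeptide receptor, rose by 1.74 in Leca4, at 7.31 to 7.91 in mutants and 5.8 to 6.03 in controls. All its Sey arrays were below the detection level (3.02 to 3.36 in mutants, 3.61 to 4.17 in controls), and its opposite call was lost with values set to that level.

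**Figure D2:**
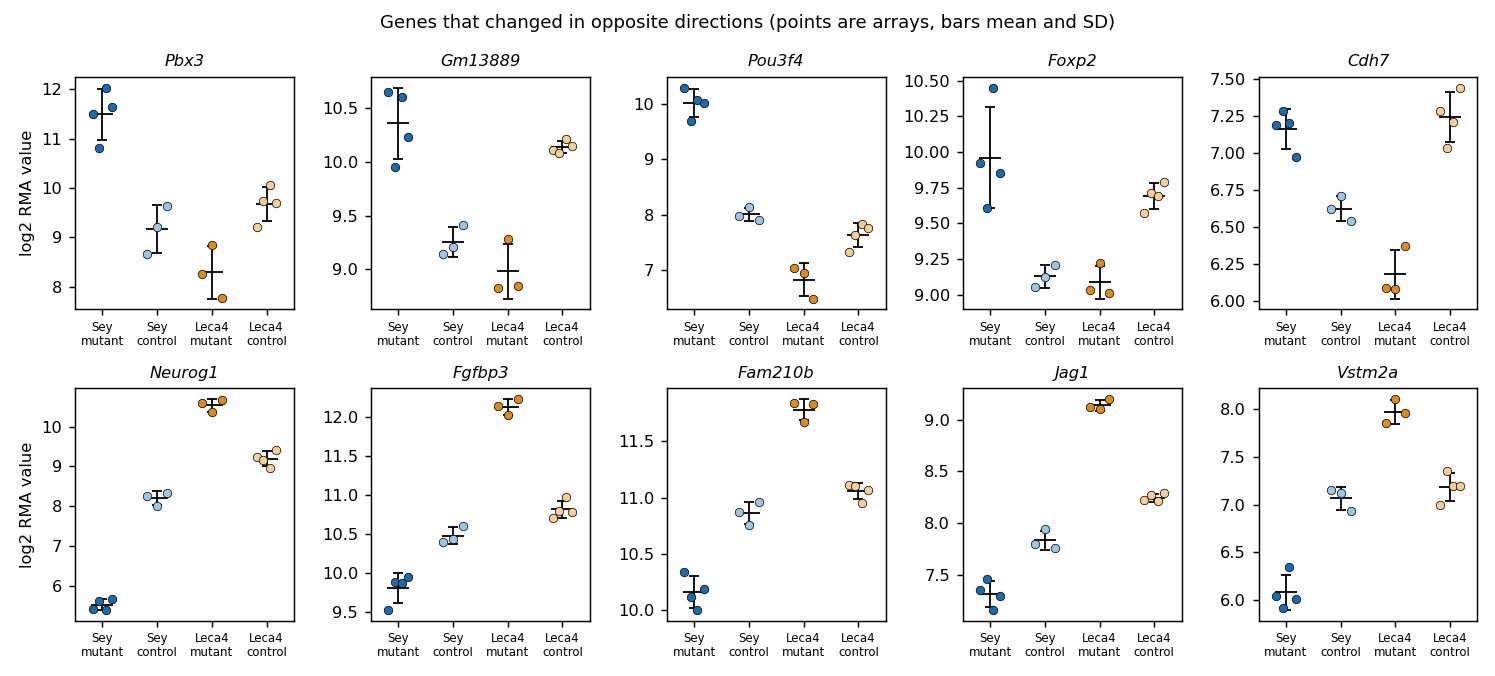
Log2 RMA value (y axis, a scale of its own per gene) of 10 opposite genes in each array (points) of Sey mutants, Sey controls, Leca4 mutants and Leca4 controls (x axis), with mean and SD. In the upper row Sey mutants lie above and Leca4 mutants below their controls, and in the lower row the order is the reverse. Neurog1 is near 5.5 in Sey mutants and above 10 in Leca4 mutants.

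Among all 91 opposite genes, mutants lay beyond all controls of their line in both lines for 82. The same held for 27 of 30 genes that fell and 16 of 16 that rose in both lines with a called difference. Such separation in the arrays that gave the calls is thus not particular to opposite genes. Over the 91 opposite genes the median size of change was 0.40 in Sey and 0.42 in Leca4, the Sey change was the larger for 41, and the difference ranged in size from 0.29 to 4.01. Most opposite changes were small. Both changes exceeded 0.5 in log2 for 22 genes, and both exceeded 2-fold for 3, which were Neurog1, Pbx3 and Gm13889. In 5 of the 91 a group was at or below the detection level in all its arrays, beside 813 of the 12072 genes without a called difference. On a sex chromosome were 3 of the 91, with no share over all genes to set beside them. Control levels were over 1 log2 apart between lines for 5 of the 91 (5.49%), beside 3.36% of all genes tested. The opposite call held in all 24 alternative settings for 23 genes, among them Neurog1, Jag1, Fgfbp3, Fam210b, Foxp1, Foxp2, Cdh7, Gm13889, Kcnq5, Vstm2a, Pcdh7 and Sall3. With the Y-linked level as a covariate 1379 genes had a called difference and 62 were opposite, 58 of them among the 91.

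The Leca2 line gave values from arrays that neither change used. For 69 of the 91 opposite genes (75.8%) the Leca2 change had the sign of the Sey change, beside 58.7% of all genes tested and 71.6% of the genes called in Sey. It was called in that direction for 6 of them and in the direction of Leca4 for 0 (25 and 1 at an unadjusted p under 0.05), beside 0.173% of all genes called up and 0.303% called down in Leca2. Called in Leca2 were Neurog1, Qrfpr, Pde1c (-0.52) and Ak3 (-0.32), which were also lower in Sey mutants, and Tmem163 and Mfge8 (0.30), which were also higher. For Qrfpr all Sey and all Leca2 arrays were at or below the detection level, so neither direction is measured there.

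Many genes of the ventral telencephalon and of GABAergic neurons rose in Sey and were not called in Leca4. Dlx2, a homeodomain factor that specifies GABAergic neurons, was at 11.64, 11.44, 11.76 and 11.55 in Sey mutants, against 7.42, 7.85 and 8.09 in Sey controls. It was at 8.68, 9.04 and 8.44 in Leca4 mutants, against 8.75, 8.77, 9.91 and 9.27 in Leca4 controls. The Sey groups were far apart and the Leca4 groups overlapped, and the difference was 4.27 ± 0.50 (adjusted p = 1.01e-05). Gsx2, which acts upstream of the Dlx genes in ventral progenitors, was at 8.59 to 9.31 in Sey mutants and 5.65 to 5.89 in Sey controls. It was at 5.29 to 5.99 in Leca4 mutants and 5.92 to 7.12 in Leca4 controls, a change of -0.83 that was not called (adjusted p = 0.108).

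Of 21 tested genes of this ventral list, Sey mutants had 13 higher and 1 lower, while in Leca4 1 rose and 2 fell. The difference was positive for 13 and negative for 1. The median was 1.75 in Sey, -0.21 in Leca4 and 1.95 for the difference, beside medians near 0 over all genes. Over all genes tested, 10.7% rose and 9.41% fell in Sey, and 3.39% rose and 2.24% fell in Leca4. The difference was positive for 6.76% of them and negative for 6.08%. Counts of this and of later lists are to be read beside these shares. Dlx6os1, a noncoding RNA of the Dlx5 and Dlx6 locus, had the largest difference of the list, with a rise of 4.55 in Sey and an uncalled Leca4 change of -0.80 (adjusted p = 4.82e-06 for the difference). Dlx1 rose by 3.88 in Sey with a Leca4 change of -0.87, and Dlx5 by 3.76 with a Leca4 change of -0.30, and neither Leca4 change was called. Gad2 and Gad1, which make the transmitter GABA, rose in Sey by 1.75 and 2.02, and their Leca4 changes of -0.21 and -0.47 were not called. Dlx6 was at 7.5 to 8.56 in Sey mutants, at least 6.49-fold above the detection level that all Sey controls stayed below, and it was at 4.99 to 5.19 in Leca4 mutants and 4.92 to 5.43 in Leca4 controls. The 2 genes called down in Leca4 were Foxp2 and Meis2 (-0.30), and the 1 that rose in Leca4 and fell in Sey was Foxp1.

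The summed linear level of these ventral genes was 21148 to 29289 in Sey mutants and 9915 to 10656 in Sey controls. It was 8999 to 12112 in Leca4 mutants and 10904 to 13409 in Leca4 controls, so the Leca4 groups overlapped. Ventral genes also varied among the Leca4 controls. Dlx1 was at 8.91, 8.87, 10.05 and 9.29 there, highest in control 3, where Pbx3, Adarb2 and Pou3f4 were highest too. The part of ventral cells within the dissected tissue in the falls of those genes in Leca4 mutants was not tested.

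Genes of cell division rose in Sey and were not called in Leca4. All 28 tested genes of DNA replication and S phase rose in Sey and 0 were called in Leca4 by limma (6 at an unadjusted p under 0.05), and the difference was positive for 22. Their median was 0.64 in Sey, 0.06 in Leca4 and 0.62 for the difference. All 28 tested genes of mitosis and cytokinesis likewise rose in Sey with 0 called in Leca4 (1 at an unadjusted p under 0.05), with 25 positive differences and medians of 0.68 in Sey, 0.04 in Leca4 and 0.68 for the difference. Leca4 changes ranged from -0.15 to 0.34 over the replication genes and from -0.09 to 0.25 over the mitosis genes. Top2a, which untangles DNA in dividing cells, was at 12.14, 12.12, 12.04 and 11.98 in Sey mutants, against 11.14, 11.19 and 11.16 in Sey controls. In the other line it was at 11.97, 11.94 and 11.82 in Leca4 mutants, against 11.83, 11.95, 11.64 and 11.94 in Leca4 controls. The difference for Top2a was 0.84 ± 0.12 (adjusted p = 9.57e-05). Cdc6, a licensing factor of replication origins, rose by 1.18 in Sey with a Leca4 change of 0.14, and Cdc45, a helicase cofactor, by 0.99 with a Leca4 change of -0.05. E2f1, a driver of S phase entry, rose by 0.41 in Sey with a Leca4 change of 0.34 and had no called difference. Under the quantile and the covariate alternatives the replication list had 21 or 22 positive differences and the mitosis list 24 to 26.

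The genes that rose in Sey without a Leca4 call, with a narrow Leca4 interval and all Sey mutants above their controls, included Dlx6 and Gbx2. Gbx2, a homeodomain factor of thalamic and hindbrain development, was at 6.5 to 6.8 in Sey mutants and below the detection level in all arrays of the other groups, which makes it at least 2.34-fold higher. Tshz1, a zinc finger factor of ventral interneurons, rose by 1.73 in Sey with a Leca4 change of 0.06. Wls, which carries Wnt proteins to the cell surface, was at 8.43, 8.86, 8.72 and 8.8 in Sey mutants, against 5.69, 5.83 and 5.63 in Sey controls. It was at 6.1, 5.89 and 6.58 in Leca4 mutants, against 6.14, 6.31, 6.58 and 6.59 in Leca4 controls. Wls thus rose in Sey by 2.99 ± 0.15 with overlapping Leca4 groups, and the difference was 3.20 ± 0.21 (adjusted p = 1.09e-08). Of 13 tested genes of Cajal-Retzius neurons, the early Reln-expressing neurons of the cortical surface, 8 rose and 1 fell in Sey, 0 were called in Leca4 by limma (2 at an unadjusted p under 0.05), and 6 differences were positive and 1 negative. Lhx5 and Ebf3, factors of these neurons, rose in Sey by 1.15 and 0.87, with Leca4 changes of -0.06 and -0.10.

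Several neurogenic factors fell in Sey and were not called in Leca4. Of 18 tested proneural and neurogenic bHLH factors and their regulators, 5 rose and 8 fell in Sey and 2 rose and 0 fell in Leca4 by limma (8 at an unadjusted p under 0.05 in either direction), with 1 positive and 6 negative differences and a median Sey change of 0.00. Id1, an inhibitor of bHLH factors, rose by 1.15 in Sey with a Leca4 change of -0.20 (difference 1.35 ± 0.17, adjusted p = 2.24e-05), and Id3, of the same family, rose by 1.76 in Sey and 1.13 in Leca4. Neurog2, the main proneural factor of the dorsal cortex, was at 10.6, 11, 10.49 and 10.75 in Sey mutants, against 12.35, 12.29 and 12.33 in Sey controls. It was at 12.29, 11.98 and 12.32 in Leca4 mutants, against 12.11, 12.5, 12.25 and 12.09 in Leca4 controls. All Sey mutants were thus below their controls while the Leca4 groups overlapped, and the difference was -1.57 ± 0.17 (adjusted p = 4.2e-06). The 95% interval of the Leca4 change of Neurog2 ran from -0.29 to 0.21. Eomes (Tbr2), the marker of intermediate progenitors, was at 9.98 to 10.57 in Sey mutants and 11.94 to 11.99 in Sey controls, and at 12.38 to 12.46 in Leca4 mutants and 12.46 to 12.66 in Leca4 controls. Its difference was -1.52 ± 0.14 (adjusted p = 6e-07).

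Of 20 tested genes of intermediate progenitors, 7 rose and 8 fell in Sey and 3 rose and 1 fell in Leca4, with 2 positive and 7 negative differences. Cxcl12, a chemokine of intermediate progenitors and meninges, was at 6.34 to 7.29 in Sey mutants and 9.37 to 9.41 in Sey controls. It was at 9.47 to 9.7 in Leca4 mutants and 9.38 to 9.75 in Leca4 controls, and the difference was -2.50 ± 0.25 (adjusted p = 1.78e-06), or -1.49 with the mean of its 2 probe sets. Neurod4, a neuronal bHLH factor, was below the detection level in all Sey mutants and at least 4.38-fold lower there, and its Leca4 change of -0.43 narrowly missed the threshold (adjusted p = 0.0552). Both genes also fell in the Leca2 line, Cxcl12 by 1.44 and Neurod4 by 1.49. Among the 1182 genes changed in Sey and not called in Leca4, Leca2 was called with the sign of the Sey change for 18 and with the other sign for 0 (196 and 10 at an unadjusted p under 0.05). Over all genes tested, 0.173% were called up and 0.303% down in Leca2. Among all genes called in Sey, the Leca2 change had the sign of the Sey change for 71.6%, so a shared sign is not particular to this class.

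Most of the listed projection neuron genes fell in Sey. Of 23 tested, 3 rose and 14 fell in Sey and 2 rose and 5 fell in Leca4, with 1 positive and 8 negative differences. The median was -0.55 in Sey, -0.13 in Leca4 and -0.38 for the difference. Tbr1, a factor of early-born cortical neurons, fell by 0.86 in Sey with a Leca4 change of 0.03 (difference -0.89 ± 0.23, adjusted p = 0.0147). Unc5d, a netrin receptor, fell by 2.34 with a Leca4 change of -0.22, and Slc17a6, a vesicular glutamate transporter, by 1.18 with a Leca4 change of -0.17. Of 38 tested genes of axon guidance and adhesion, 5 rose and 18 fell in Sey and 2 rose and 6 fell in Leca4, with 4 positive and 11 negative differences. The rises were near the shares over all genes tested, 10.7% in Sey and 3.39% in Leca4. Sema5a, a semaphorin, fell by 2.01 in Sey with a Leca4 change of 0.00, and Cdh8, a cadherin, fell in both lines, by 1.56 and 1.20, with no called difference. With a narrow Leca4 interval, Kif26b, an atypical kinesin, and Hs3st1, a heparan sulfate sulfotransferase, fell in Sey by 2.37 and 1.52. Hs3st1 was at 8.56 to 8.72 in Sey mutants and 10.14 to 10.19 in Sey controls, and at 10.88 to 10.96 in Leca4 mutants and 10.8 to 10.86 in Leca4 controls.

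Matrix and matricellular genes were among those that rose in Leca4 and were not called in Sey. Ccn2 (CTGF), a secreted matricellular protein, was at 6.17, 6.24, 6.01 and 6.1 in Sey mutants, against 6.38, 6.54 and 5.98 in Sey controls. It was at 8.72, 8.54 and 8.95 in Leca4 mutants, against 6.3, 6.26, 6.21 and 6.46 in Leca4 controls. The Leca4 mutants stood apart from their controls and the Sey groups overlapped, and the difference was -2.60 ± 0.17 (adjusted p = 9.94e-09). Cd44, a receptor for hyaluronan and a neighbour of Pax6 on chromosome 2, was at 4.7 to 5.27 in Sey mutants and 4.86 to 5.05 in Sey controls. It was at 7.87, 7.88 and 8.02 in Leca4 mutants and at or below the detection level in all Leca4 controls, at least 5.04-fold higher in the mutants.

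Of 31 tested genes of the matrix, 2 rose and 5 fell in Sey and 8 rose and 2 fell in Leca4, with 1 positive and 7 negative differences. The median change of the list was -0.02 in Sey and 0.05 in Leca4, so the rises lay in a few of its members. Besides Ccn2 and Cd44 these included Fbln7 (below the detection level in all Sey arrays, 2.66 in Leca4), Sparc (0.08 in Sey and 0.86 in Leca4), Fn1 (0.07 and 0.75) and Fbln2 (-0.04 and 0.70), all secreted matrix proteins. Fbln7 spread widely among the Leca4 mutants, at 8.08, 7.16 and 9.3, against 5.32 to 5.94 in Leca4 controls. Fbln1, in contrast, rose in both lines, by 1.12 in Sey and 0.62 in Leca4, with a positive difference.

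Adcyap1, the precursor of the neuropeptide PACAP, was at 6.85 to 7.12 in Sey mutants and 6.67 to 6.84 in Sey controls, just above them without a call (0.25, adjusted p = 0.0508). It was at 9.89, 9.92 and 10.14 in Leca4 mutants, against 7.47, 7.6, 7.61 and 7.66 in Leca4 controls. Its Leca4 mutants were thus far above their controls, and the difference was -2.15 ± 0.12 (adjusted p = 1.42e-09). Chrna3, a subunit of nicotinic acetylcholine receptors, had a Sey change of 0.10 and rose by 1.94 in Leca4, and Dhrs3, which reduces retinal to retinol, had a Sey change of 0.00 and rose by 1.08 in Leca4. Dbx1, a homeodomain factor of progenitors at the border between pallium and subpallium, was at 5.72 to 6.49 in Sey mutants, all above the 5.52 to 5.63 of Sey controls. That Sey change of 0.58 was not called (adjusted p = 0.183). Dbx1 was at 9.21, 7.12 and 8.2 in Leca4 mutants, against 5.55 to 5.81 in Leca4 controls, and the difference was -1.94 ± 0.41 (adjusted p = 0.00396).

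Fewer genes fell in Leca4 without a Sey call. Cdo1, which oxidizes cysteine, was at 9.06 to 9.23 in Sey mutants and 9.05 to 9.3 in Sey controls. It was at 8.83, 9.05 and 9.02 in Leca4 mutants, against 9.97, 10, 9.92 and 10.2 in Leca4 controls, and the difference was 1.02 ± 0.12 (adjusted p = 9.05e-06). Scd1, a desaturase of fatty acids, had a Sey change of -0.16 and fell by 1.14 in Leca4, and the mean of its 2 probe sets gave a difference of 0.55. Itpa, which clears noncanonical nucleotides, had a Sey change of 0.12, and fell by 0.87 in Leca4 and by 0.89 in Leca2. Blvra, a biliverdin reductase, had a Sey change of 0.15, and fell by 0.51 in Leca4 and by 0.57 in Leca2. Both genes are on chromosome 2, which also carries Pax6, and the labels give the Leca4 and Leca2 lines the same strain. Among the 255 genes changed in Leca4 and not called in Sey, Leca2 was called with the sign of the Leca4 change for 4 and with the other sign for 2. Over all genes tested, Leca2 was called up for 0.173% and down for 0.303%.

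Of 12 tested microglia genes, 0 were called in Sey by limma (2 at an unadjusted p under 0.05), and Csf1r, C1qa, C1qc and Cx3cr1 rose in Leca4, by 0.33 to 0.52, with negative differences. C1qa was at 8.08, 8.02 and 7.84 in Leca4 mutants, against 7.3 to 7.56 in Leca4 controls. The summed linear level of the list was 1762 to 1933 in Sey mutants and 1755 to 2040 in Sey controls, and 2438 to 2677 in Leca4 mutants and 1971 to 2180 in Leca4 controls. With the Y-linked level as a covariate 1 difference of the list was called, as was the case without Sey mutant 3, Sey control 2, Leca4 mutant 1, Leca4 mutant 2 or Leca4 control 2. Without Sey mutant 2, Sey control 1 or Leca4 control 4 2 were called. The other probe sets of Csf1r were not called in Leca4. How these cells bear on the other Leca4 rises was not tested.

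**Figure D3:**
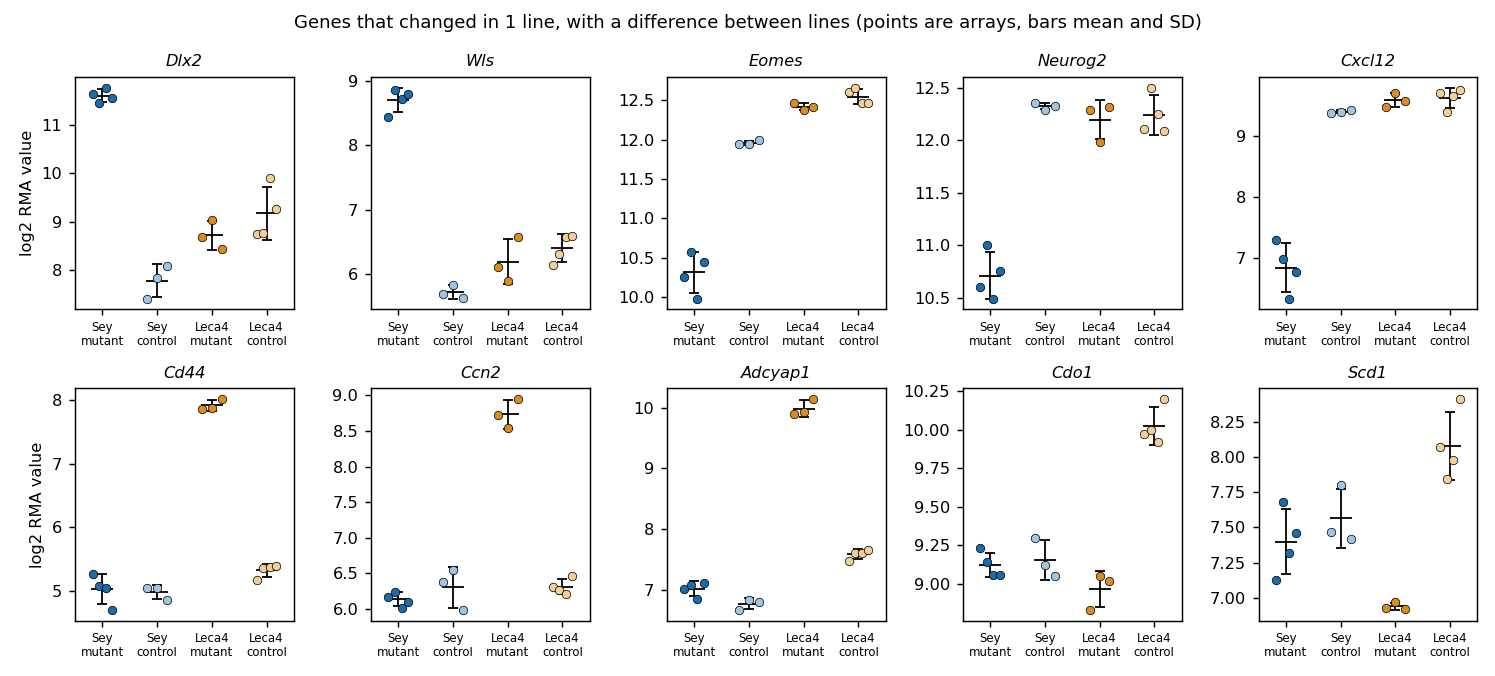
Log2 RMA value (y axis, a scale of its own per gene) of 10 genes changed in 1 line in each array (points) of Sey mutants, Sey controls, Leca4 mutants and Leca4 controls (x axis), with mean and SD. Dlx2 and Wls stand out upward and Eomes, Neurog2 and Cxcl12 downward in Sey mutants, while Cd44, Ccn2 and Adcyap1 stand out upward and Cdo1 and Scd1 downward in Leca4 mutants.

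Some genes changed the same way in both lines but not equally. Rlbp1, a retinaldehyde-binding protein, was at 4.28 to 4.6 in Sey mutants, below the detection level, and 10.43 to 10.54 in Sey controls, at least 34.5-fold lower in the mutants. It was at 9.31, 9.45 and 9.38 in Leca4 mutants, against 10.39, 10.52, 10.68 and 10.38 in Leca4 controls, a fall of 1.12 ± 0.09. With values below the detection level set to it the difference was -3.99, which bounds its size from below, and it was called (adjusted p = 1.35e-14). In Leca2 Rlbp1 fell by 3.12. Aldoc, a glycolytic enzyme, and Slc1a3, a glutamate transporter of radial glia, fell in Sey by 1.66 and 1.44 and in Leca4 by 0.48 and 0.37. Lgals1, a galectin, and Npnt, a matrix ligand of integrins, rose by 0.66 and 0.37 in Sey and by 1.98 and 2.09 in Leca4, with negative differences. The mean of the 4 probe sets of Npnt gave a difference of -0.73, against -1.72 for the brightest. In all, 16 genes rose and 30 fell in both lines with a called difference, and 143 genes called in both had none. Of these, Crabp1, a retinoic acid-binding protein, rose by 2.47 in Sey and 2.66 in Leca4 (difference -0.20 ± 0.37, adjusted p = 0.782).

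Pax6 itself rose in Sey mutants in 3 of 4 probe sets and in Leca4 mutants in 1 of 4. By the brightest probe set it was at 11.18, 11.34, 10.94 and 11.16 in Sey mutants, against 10.6, 10.63 and 10.55 in Sey controls. In the other line it was at 12.02, 11.86 and 12.2 in Leca4 mutants, against 11.52, 11.68, 11.41 and 11.55 in Leca4 controls. The groups did not overlap in either line, and the difference of 0.07 ± 0.13 was not called, with a 95% interval from -0.20 to 0.34 (adjusted p = 0.774). The dimmer probe sets gave Sey changes of 0.60, 0.57 and 0.19 and Leca4 changes of 0.17, 0.16 and 0.07, with none of these Leca4 changes called (adjusted p = 0.639, 0.347 and 0.662). One of them had a called difference (0.41 ± 0.12, adjusted p = 0.0317, adjusted over all probe sets). These probe sets measure RNA and do not check for either mutation. Of 200 tested genes nearest to Pax6 on chromosome 2 (100 on each side), 43 had a called difference (21.5%), beside 12.8% of all genes tested, and 2 were opposite (Gm13889 and Gjd2). Depdc7, Cd44, Gm13778 and Scg5, which also differed between lines, are among these neighbours, and the part of line-specific flanking sequence in their values was not tested.

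**Figure D4:**
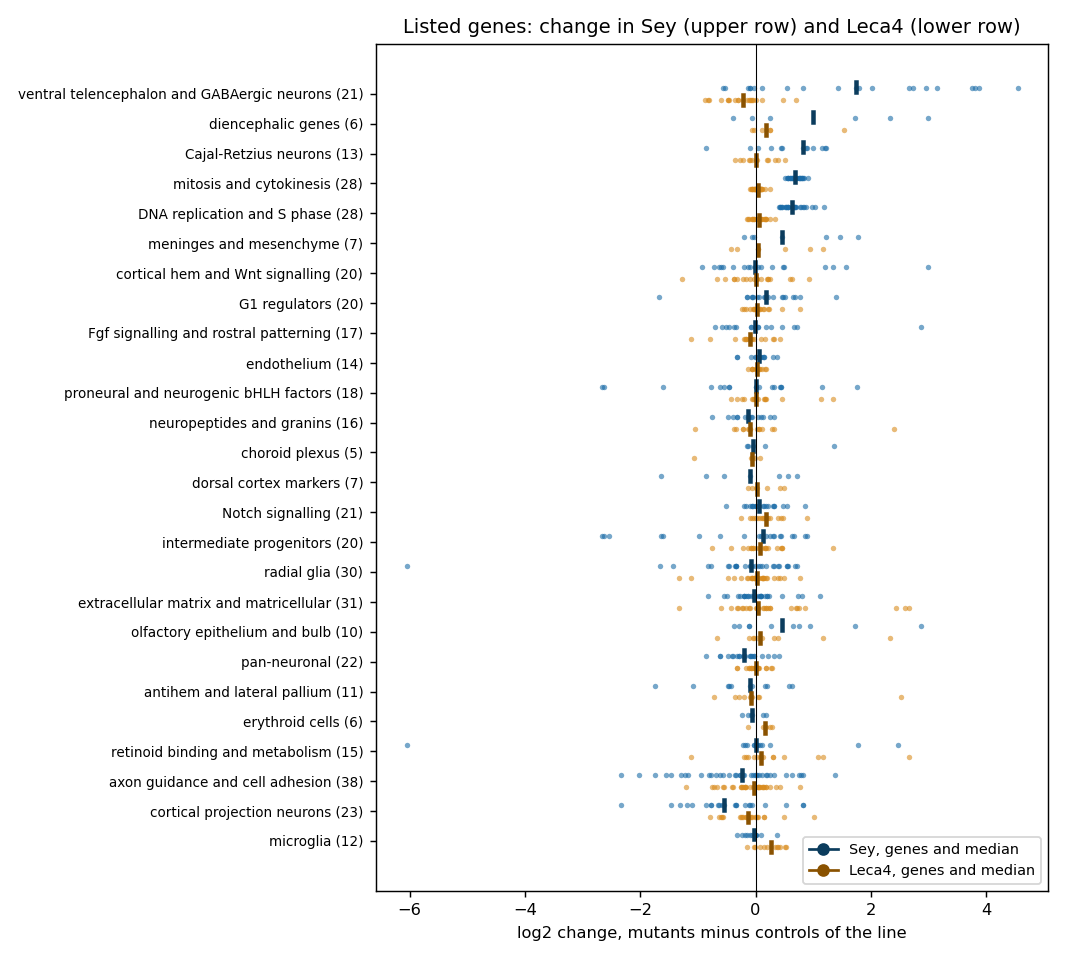
Change (x axis, log2, mutants minus controls) of the tested genes of 26 lists (number in brackets), with Sey in the upper row (blue) and Leca4 in the lower row (orange) of each list, points for genes and bars for medians. The ventral list has medians of 1.75 in Sey and -0.21 in Leca4, and the replication and mitosis lists lie wholly above 0 in Sey and around 0 in Leca4.

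Genes of radial glia, of Wnt signalling and of G1 control moved in both directions in Sey. Of 30 tested radial glia genes, 7 rose and 11 fell in Sey and 1 rose and 4 fell in Leca4, with 0 positive and 6 negative differences by limma (9 at an unadjusted p under 0.05 in either direction). Gas1, a membrane protein that modulates Hedgehog signalling, fell by 0.78 in Sey with a Leca4 change of 0.31 (difference -1.09 ± 0.13, adjusted p = 2.06e-05). Of 20 tested genes of the cortical hem and of Wnt signalling, 4 rose and 6 fell in Sey and 2 rose and 3 fell in Leca4, with 2 positive and 5 negative differences. Rspo3, a secreted enhancer of Wnt signalling, fell by 0.92 in Sey with a Leca4 change of 0.21, and Bmp7, a secreted growth factor, had a Sey change of -0.09 and rose by 0.63 in Leca4. Of 20 tested G1 regulators, 9 rose and 2 fell in Sey and 1 rose and 1 fell in Leca4, with 5 positive and 1 negative difference. Hmga2, a chromatin protein of young progenitors, fell by 1.68 in Sey with a Leca4 change of 0.07, and Cdkn1c, a cell cycle inhibitor, rose by 0.77 in Sey and 0.78 in Leca4.

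Markers of cells that the dissection could include were measured in the same way. Of 6 tested diencephalic genes, 3 rose and 1 fell in Sey and 1 rose in Leca4, with 3 positive and 1 negative difference. Their median change was 0.99 in Sey and 0.19 in Leca4. Of 10 tested genes of olfactory epithelium and bulb, 5 rose and 2 fell in Sey and 2 rose in Leca4. Their differences were positive for 2 and negative for 1. Of 14 tested endothelial genes, 0 had a called difference by limma (1 at an unadjusted p under 0.05), beside 12.8% of all genes tested. Among 7 tested meningeal and mesenchymal genes, 3 rose and 1 fell in Sey and 2 rose in Leca4, and 0 had a called difference (4 at an unadjusted p under 0.05). Their summed linear level was 6300 to 7475 in Sey mutants and 2802 to 3705 in Sey controls, and 4076 to 5606 in Leca4 mutants and 2734 to 4169 in Leca4 controls. Most of this sum was Zic1, a factor of meninges and of medial forebrain, so it does not measure the list as a whole. Zic1 was at 12.31 to 12.61 in Sey mutants and 10.99 to 11.53 in Sey controls. It rose by 1.22 in Sey with a Leca4 change of 0.51 that was not called. Ttr, the defining marker of choroid plexus, was at 6.57 to 6.7 in Sey mutants and 6.71 to 6.81 in Sey controls, and at 6.89 to 7.16 in Leca4 mutants and 6.86 to 7.42 in Leca4 controls, with no call in either line. Of the 5 tested choroid plexus genes, Otx2, a homeodomain factor that is also expressed in midline and caudal forebrain, had a called difference (2.43 ± 0.77, adjusted p = 0.0446) without a call in either line. It was at 6.82, 7.07, 5.76 and 6.61 in Sey mutants, against 4.9, 5.18 and 5.52 in Sey controls, and at 4.3, 3.94 and 6.05 in Leca4 mutants, against 5.06, 5.89, 6.18 and 6.2 in Leca4 controls. The Leca4 groups overlapped around the detection level, and the call was lost with the Y-linked covariate (adjusted p = 0.0881) and without any 1 of Sey mutants 1, 2 and 4, of the Sey controls, of Leca4 mutants 1 and 2 or of Leca4 controls 2, 3 and 4.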

How the data were processed

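Each sample of cortical RNA was measured on 1 Affymetrix array. The values the authors deposited are log2 expression values per probe set, made with RMA per the submitters' processing notes, and its version and settings are not given in the labels or files. Array distributions are nearly the same within a line and differ between lines. The number of arrays, not a read depth, limits the precision.

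Of 45101 probe sets, 34945 named 1 gene in the platform annotation, and symbols were updated through RefSeq (GRCm38.p6). A probe set was kept if at least 3 of the 21 arrays lay above the 40th percentile of their array, and the one with the highest mean stood for its gene, which left 13850 genes. limma 3.58.1 in R 4.3.3 fitted 1 mean per group over all 21 arrays (15 residual and 3.54 prior degrees of freedom). The Sey change, the Leca4 change and their difference were tested, each adjusted over all genes by Benjamini-Hochberg at a threshold of 0.05. Where all arrays of a group were at or below the 40th percentile, a fold is given as a lower bound against that level. The script was tested on simulated data with known changes.

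Members and gene lists were chosen with earlier results of these data known. Named genes are Pax6 and an index list, the 10 opposite genes per direction with the largest smaller change, the 10 per direction with the largest difference among those changed in 1 line, the 5 per direction changed unequally in both, and up to 4 per list with the smallest p of the difference. The opposite picks came from genes whose mutant arrays lay beyond all controls of their line in both lines. The picks changed in 1 line needed mutant arrays beyond all controls of that line. They also needed a 95% interval within 0.5 of 0 in the other line. Separate groups were thus a condition of choosing these genes. Members of lists beyond the named genes were named after their values were seen. Alternatives covered the arrays fitted, the replicate number, the filter, the probe set, the variance model, array weights, quantile normalization, the detection level, the Y-linked level and each array left out.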

Additional observations from a re-analysis of the deposited data

Results flagged for a closer look

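The Sey change and the Leca4 change differed by a test of the difference itself for 1778 genes, and 91 of them changed in opposite directions.

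In 164 groups of 4 arrays of named genes, an array was examined for a large gap to the others, and 5 groups had one. Chance flags about 1 in 20 groups. All 5 were Leca4 controls. Sema5a was at 9.12 in Leca4 control 4, with the nearest other control at 8.82. Rbm24 was at 9.49 in Leca4 control 2, with the nearest at 9.77, and Shisa2 was at 10.39 in the same array, with the nearest at 10.02. Cd44 was at 5.17 in Leca4 control 1, with the nearest at 5.36, and Npnt was at 6.03 in the same array, with the nearest at 6.44.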

How the results depend on the processing

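The counts of genes with a difference (1778), of opposite genes (91), of genes changed in Sey and not called in Leca4 (1182) and of the reverse class (255) stayed within 1.5 times under every alternative but one. With the replicate block, which takes replicate numbers as if they paired samples, they were 1015, 39, 702 and 154. That fit has fewer residual degrees of freedom. Same-numbered mutants and controls correlated in their deviations at 0.089, 0.027 and 0.105 in Sey and at 0.103, -0.44 and -0.191 in Leca4. So few values cannot decide whether the numbers pair samples, and the labels state no pairing. Leaving out 1 array gave 1326 to 1871 differences, 64 to 89 opposite genes, 885 to 1259 of the Sey class and 197 to 246 of the Leca4 class. Array weights gave 2079 differences and 111 opposite genes, the Y-linked covariate 1379 and 62, and quantile normalization 1834 and 88. Differences of single genes kept their call and direction in 3708 cases, lost the call in 168, gained it in 17 and reversed a called value in 0. Array signal limits the rest: a value near the detection level bounds a fold only from below.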
